A study of Homo sapiens with 9 samples.

Results

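Capture-C interactions of 20 promoters were compared between 3 libraries of HCT-116 MED14-dTAG cells that received dTAG ligand together with I-BET, an inhibitor of BET proteins (dTAG+I-BET), and 3 libraries of the same cells that received DMSO. These are 6 of the 9 libraries of the series, chosen by their treatment label, and the other 3 received dTAG ligand alone (dTAG). The study selected its 20 genes for robust activity, lower expression after Mediator depletion, high Mediator at the promoter and a super-enhancer. Shares of these promoters therefore do not describe promoters in general. For each promoter, sequence on both sides of the transcription start site was taken, from beyond 10 kb out to 500 kb. HCT-116 cells derive from a human colorectal carcinoma, and in every library of the series the cells carry a degradation tag on MED14, so that the DMSO cells have the tagged protein too. The ligand was given at 0.5 μM for 2 h in both treated groups, and I-BET at 1 μM for 90 min. No library received I-BET alone, and the files hold no RNA or protein, so that neither the loss of MED14 nor the identity of the cells could be checked here. A single tagged cell line stands behind all libraries.

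Mediator is a large complex that passes signals from enhancer-bound transcription factors to RNA polymerase II at promoters, and MED14 is the subunit that holds its modules together. BET proteins bind acetylated histones at active enhancers and promoters, and I-BET displaces them from there. Cohesin extrudes chromatin loops and brings distant elements close to promoters, with CTCF sites as barriers. Capture-C reads out such proximity: chromatin is crosslinked, cut with the restriction enzyme DpnII and religated, and ligation products that contain a chosen promoter fragment, the viewpoint, are enriched and sequenced.

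A set of regions was taken from the positions at which the study found less of the cohesin subunit SMC1A after MED14 depletion, called cohesin-lost sites here. No filter for enhancers was applied, and some of these sites lie near the start site of another gene. The sites come from another assay (CUT&Tag), which compared dTAG with DMSO and did not include I-BET. Counted per viewpoint, 153 such sites (141 different ones) lay around 19 of the 20 promoters, 1 to 15 each and none for DDIT4. Widened by 5 kb on each side and merged, they made 113 windows, and KRR1 and PHLDA1 face the same ones from their 2 sides. The sequences below are the 200 bases at the centre of the first cohesin-lost site in a window whose signal differed between dTAG+I-BET and DMSO, the window with the lowest p at each of 6 of the 7 loci with such a window. No sequence is shown for MYC, the other one. Capitals mark a match, on either strand, to the AP-1 motif TGANTCA or the TCF motif CTTTGAT.
MTAP window, chr9:21559712-21559911 (hg38, plus strand): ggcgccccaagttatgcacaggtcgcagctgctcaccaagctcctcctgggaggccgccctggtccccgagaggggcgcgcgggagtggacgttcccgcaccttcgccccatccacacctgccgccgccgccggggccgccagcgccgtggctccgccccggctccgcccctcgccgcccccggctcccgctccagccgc
HMGA2 window, chr12:65631697-65631896 (hg38, plus strand): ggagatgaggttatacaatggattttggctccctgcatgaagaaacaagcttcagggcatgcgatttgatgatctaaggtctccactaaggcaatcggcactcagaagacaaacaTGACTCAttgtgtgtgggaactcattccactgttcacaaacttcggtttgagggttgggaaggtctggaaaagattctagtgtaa
IRS1 window, chr2:226652441-226652640 (hg38, plus strand): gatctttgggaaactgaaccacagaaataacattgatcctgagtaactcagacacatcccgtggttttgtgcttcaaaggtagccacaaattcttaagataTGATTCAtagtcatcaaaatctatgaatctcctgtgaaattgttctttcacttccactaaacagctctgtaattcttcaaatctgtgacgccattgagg
KRR1 window, chr12:75954135-75954334 (hg38, plus strand): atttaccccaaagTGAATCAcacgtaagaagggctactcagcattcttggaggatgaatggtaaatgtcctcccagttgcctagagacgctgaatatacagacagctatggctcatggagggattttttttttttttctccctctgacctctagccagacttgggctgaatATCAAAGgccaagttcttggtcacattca
ITPRID2 window, chr2:181949214-181949413 (hg38, plus strand): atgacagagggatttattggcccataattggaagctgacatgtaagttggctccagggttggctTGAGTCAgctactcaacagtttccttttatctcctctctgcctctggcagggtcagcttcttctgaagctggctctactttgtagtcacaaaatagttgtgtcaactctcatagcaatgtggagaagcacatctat
EREG window, chr4:74665305-74665504 (hg38, plus strand): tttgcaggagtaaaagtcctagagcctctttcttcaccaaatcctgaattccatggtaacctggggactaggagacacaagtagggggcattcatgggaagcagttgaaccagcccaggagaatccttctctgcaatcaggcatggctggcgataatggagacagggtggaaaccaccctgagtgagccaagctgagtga
The MTAP sequence overlaps an exon of the long noncoding RNA gene MIR31HG, the HMGA2 sequence lies in introns of MSRB3-AS1 and ENSG00000256915, and the KRR1 sequence in an intron of ENSG00000258077, all noncoding genes of GENCODE 44, whereas the other 3 lie between genes. AP-1 matches are in 4 of the 6 sequences and a TCF match in the KRR1 sequence, and neither motif is in the MTAP and EREG sequences. Over the central 200 bases of all 141 sites, 44.7% held the AP-1 motif against 6.70% of 98000 tiles of 200 bases from 10 to 500 kb around the 20 promoters. For the TCF motif these shares were 4.26% and 3.44%, and for a core of the CTCF motif 0 of 141 sites and 0.496% of tiles, both strands searched. The tiles cover all sequence of these regions, and SMC1A peaks that did not fall were not searched. Whether the AP-1 share is particular to cohesin-lost sites was therefore not tested. A match is a match of letters and shows no binding.

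The 3 DMSO libraries held 496783, 857998 and 610213 interactions of the 20 viewpoints within the viewpoint's chromosome, and the dTAG+I-BET libraries 544297, 531517 and 514545. A single viewpoint held 11630 to 60189 in one of these libraries (median 29272.5), and a 10-kb bin a median of 80.25. The signal given below is the authors' normalised number of interactions per kb. By the chi-square statistic per degree of freedom over 10-kb bins, replicates of dTAG+I-BET lay closer together than those of DMSO. The statistic was 1.33 to 1.36 between pairs of dTAG+I-BET libraries, 1.56 to 2.64 between DMSO pairs and 3.27 to 3.96 between the groups. It also rises with depth. Pearson correlations of log2 signal were 0.968 to 0.969 between dTAG+I-BET pairs and 0.969 between DMSO replicates 1 and 2. Those of DMSO replicate 3 with DMSO replicates 1 and 2 were 0.953 and 0.957. A pair of libraries stands apart in how signal decays with distance. Averaged over the 20 promoters from 10 to 50 kb, as log2 differences from the mean of DMSO, DMSO replicate 3 was at -0.11 against 0.10 and 0.01 in the other DMSO libraries. The library dTAG replicate 3 was at -0.48, against 0.13 and 0.10 in dTAG replicates 1 and 2. It enters the tests of dTAG+I-BET against DMSO through the spread that limma shares over all 9 libraries. Counts from these tests are therefore given with and without it. Comparisons with dTAG hold it in the mean of dTAG as well, and they are given only with it.

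In dTAG+I-BET cells, signal rose along the gene bodies of HMGA2, DCBLD2 and KITLG and over wide stretches around MTAP, and fell far upstream of MYC and HMGA2. Over whole gene bodies, the HMGA2 call held whichever of the 6 libraries was left out. The DCBLD2 call held in 2 of these 6 fits and the KITLG call in 0. Each promoter was divided into 98 bins of 10 kb. With limma, 96 of the 1960 (4.90%) passed at an adjusted p under 0.05, 68 upward (3.47%) and 28 downward (1.43%). They belonged to 13 promoters: HMGA2 had 31, MTAP 18, DCBLD2 13 and MYC 11, KITLG 6, TRIB1 5, ITPRID2 3, ANGPT2, PHLDA1 and IRS1 2 each, and PCDH7, ERRFI1 and KRT80 1 each. No bin was called at EREG, DDIT4, HS3ST1, KRR1, KRT19, SPRY4 and VTI1A. Downstream of the start site lay 58 of the 68 bins that rose, and upstream lay 25 of the 28 that fell, while all bins together are split equally between the sides. HMGA2 alone had 20 of these downstream rises, and HMGA2 and MYC had 11 each of the upstream falls. A cohesin-lost window was touched by 18 of the 28 bins that fell, by 0 of the 68 that rose and by 241 of all 1960 (12.3%). Within the viewpoint's own gene lay 26 of the bins that rose, at 6 promoters (12 of them at HMGA2), 0 of those that fell and 144 of all bins (7.35%). The median over all bins was 0.01.

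**Figure D1:**
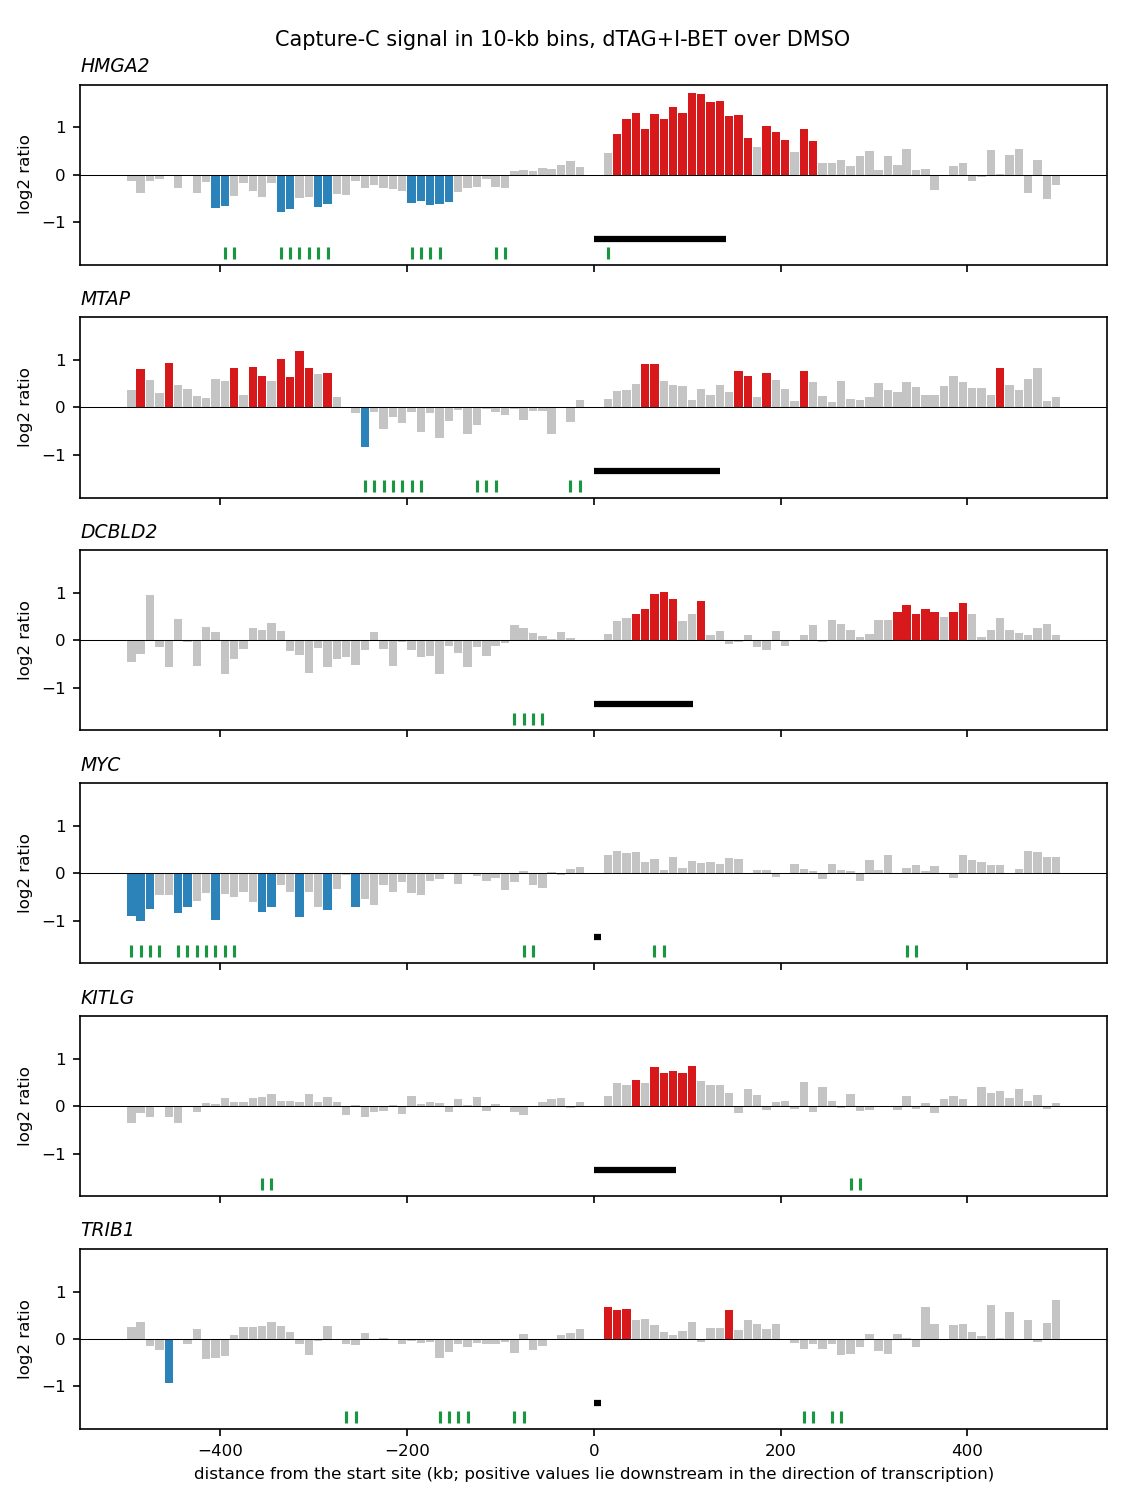
Limma's log2 difference between dTAG+I-BET and DMSO (y axis) for each 10-kb bin, placed by its distance in kb along the direction of transcription (x axis), at the 6 promoters with the most called bins. Bars are red or blue where the bin passed upward or downward and gray elsewhere, the gene of the viewpoint is the black bar, and green ticks are bins touching a cohesin-lost window. At HMGA2 the 20 red bars run from 20 to 240 kb downstream, and at MYC the 11 blue bars from 500 to 250 kb upstream.

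The number of called bins changed with the libraries in the fit, where leaving out any library also shrinks its group. It was 199 (137 up, 62 down) when dTAG replicate 3 was left out of the spread, and 30 without DMSO replicate 1, 40 without DMSO replicate 2, 88 without DMSO replicate 3, and 32, 32 and 40 without dTAG+I-BET replicate 1, 2 and 3. Called in each of these 6 leave-one-out fits were 26 of the 96 bins (22 up, 4 down), 15 of them at HMGA2. With edgeR, on interaction numbers recovered from the signal, 102 bins (5.20%) passed. Before adjustment, limma gave 309 bins a p under 0.05. In 516 bins (26.3%) the 3 dTAG+I-BET libraries lay all above (296) or all below (220) the 3 DMSO libraries, as they did in 95 of the 96 called bins. When libraries were set to the same sum over 10 to 1000 kb, 69 bins were called up and 67 down, and after adjusting for decay with distance 98 up and 66 down. The predominance of bins that rose thus depends on the scaling.

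HMGA2 encodes an architectural protein of chromatin that is abundant in embryonic and tumor cells. Its promoter gained signal with its own gene and the sequence beyond it, and lost signal with upstream sequence in and around MSRB3. The 20 bins that rose lie between 20 and 240 kb downstream, by 0.71 to 1.71 on the log2 scale, and 12 of them in the gene. In the bin with the largest increase (chromosome 12, 65924461 to 65934460, inside HMGA2), signal per kb was 156, 157 and 239 in DMSO replicates 1, 2 and 3, 564, 603 and 609.5 in dTAG+I-BET and 486, 422 and 448 in dTAG. All 3 dTAG+I-BET libraries lay above every other library (log2 1.71, SE 0.18, adjusted p = 5.43e-06 with limma). Against dTAG the difference was 0.39 (SE 0.18, limma adjusted p = 0.713). The 11 bins that fell lie between 410 and 150 kb upstream and changed by -0.78 to -0.56. Of these, 9 touch a cohesin-lost window. The largest decrease (chromosome 12, 65484460 to 65494459, in MSRB3 and its antisense gene MSRB3-AS1) went from 741, 639 and 676 in DMSO to 397, 386 and 409 in dTAG+I-BET, with 474, 510.3 and 338 in dTAG. Both treated groups lay below DMSO there, and overlapped each other (log2 -0.78, SE 0.17, adjusted p = 0.00948 with limma). The difference from dTAG was -0.13 (limma adjusted p = 0.883). This call was lost without DMSO replicate 1 or dTAG+I-BET replicate 1 or 2 (limma adjusted p of 0.0206 to 0.0646 over the 6 leave-one-out fits), whereas the bin that rose kept its call in all 6.

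MYC encodes a transcription factor that drives growth and proliferation, and its gene lies in a wide stretch with few other protein-coding genes. Signal fell in 11 bins and rose in none. All 11 lie between 500 and 250 kb upstream, in sequence annotated with the noncoding genes PCAT1 and CASC8 and, for 4 bins, the coding gene POU5F1B. A cohesin-lost window was touched by 6 of them. The largest decrease (chromosome 8, 127245434 to 127255433, in PCAT1) was from 438, 394 and 370.0 signal per kb in the DMSO replicates to 204, 170.2 and 221 in dTAG+I-BET, with 220.2, 208 and 244 in dTAG. Every treated library was below every DMSO library (log2 -1.02, SE 0.17, adjusted p = 0.00123 with limma), in all 6 leave-one-out fits as well. Against dTAG the difference was -0.18 (SE 0.17, limma adjusted p = 0.823). Summed over the whole upstream side, MYC signal was 323 ± 25.8 per kb in DMSO and 258 ± 5.05 in dTAG+I-BET (mean ± s.d., n = 3 throughout), and on the downstream side 425 ± 55.5 and 488 ± 7.27.

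MTAP encodes an enzyme of methionine salvage and lies beside the interferon gene cluster and the cell cycle inhibitor gene CDKN2A. Signal rose in 17 bins on both sides of its promoter and fell in 1. Of the bins that rose, 10 lie between 490 and 280 kb upstream, 8 of them in MIR31HG and 3 over the interferon genes IFNA6, IFNA1 and IFNE. The other 7 lie downstream, 2 in the MTAP gene and 2 in CDKN2A. The largest increase (chromosome 9, 21482636 to 21492635, in MIR31HG) was from 231, 121 and 275 in the DMSO replicates to 396, 428 and 555 in dTAG+I-BET, with 404, 413 and 406 in dTAG. DMSO replicate 2 was the lowest library there, and both treated groups, which overlapped each other, lay above DMSO (log2 1.20, SE 0.23, adjusted p = 0.00340 with limma). Against dTAG the difference was 0.16 (SE 0.23, limma adjusted p = 0.888). The bin that fell (chromosome 9, 21552636 to 21562635, also in MIR31HG) holds the cohesin-lost site printed above, and went from 765, 963 and 909 to 561, 496 and 416, with 658, 702 and 624 in dTAG. The 3 groups did not overlap in this bin (log2 -0.84, SE 0.16, adjusted p = 0.00316 against DMSO with limma), and the difference from dTAG was -0.44 (limma adjusted p = 0.713). Both calls held in all 6 leave-one-out fits.

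DCBLD2 encodes a neuropilin-like transmembrane receptor, and KITLG the ligand of the receptor tyrosine kinase KIT. At DCBLD2, 13 bins rose and none fell. Of these, 5 lie in the gene, 1 beyond its end in ST3GAL6, and 7 form a second stretch from 320 to 400 kb downstream that holds CPOX, GPR15 and CLDND1. The strongest (chromosome 3, 98821695 to 98831694, in DCBLD2) went from 455, 449 and 611 in DMSO to 1033, 986 and 1022 in dTAG+I-BET, with 1087, 1065 and 1020.0 in dTAG. Both treated groups overlapped in this bin and lay above DMSO (log2 1.02, SE 0.15, adjusted p = 0.000438 against DMSO, difference from dTAG -0.06, SE 0.15, adjusted p = 0.939, all with limma). At KITLG the 6 bins that rose lie from 40 to 110 kb downstream, 4 in the gene. The strongest (chromosome 12, 88470851 to 88480850) went from 163, 179.6 and 203 to 339, 346 and 298, with 297, 314 and 412 in dTAG. The groups of treated and DMSO cells did not overlap (log2 0.85, SE 0.18, adjusted p = 0.00826 with limma, difference from dTAG -0.05, adjusted p = 0.958). The KITLG call was lost without DMSO replicate 1 or dTAG+I-BET replicate 1 or 2 (limma adjusted p of 0.00635 to 0.0577 over the leave-one-out fits), and the DCBLD2 call in none of these fits.

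The other promoters had 1 to 5 called bins each. Near its start site, the promoter of TRIB1, a pseudokinase that targets proteins for degradation, gained signal in 3 bins from 10 to 40 kb downstream. The strongest (chromosome 8, 125440359 to 125450358) went from 1802, 1923 and 1528 in DMSO to 2714, 2995 and 2660.2 in dTAG+I-BET, with 2139, 2530.1 and 1446 in dTAG (log2 0.68, SE 0.19, adjusted p = 0.0358 against DMSO, 0.49 and adjusted p = 0.713 against dTAG, with limma). All 3 dTAG+I-BET libraries were above every other library there. ITPRID2, an actin-associated protein, gained signal in 3 adjoining bins from 20 to 50 kb downstream. The strongest, just past the gene (chromosome 2, 181931731 to 181941730), went from 728, 673 and 633 to 1036, 1243 and 1157, with 974, 913 and 661 in dTAG (log2 0.75, SE 0.16, adjusted p = 0.0103 with limma, difference from dTAG 0.45, adjusted p = 0.713). Here too the dTAG+I-BET libraries were the 3 highest. At IRS1, the adaptor of the insulin receptor, 2 adjoining bins over cohesin-lost sites 130 to 150 kb downstream fell. The stronger (chromosome 2, 226649820 to 226659819) went from 896, 851 and 953 to 542, 558 and 569.9, with 714, 649 and 430.4 in dTAG (log2 -0.69, SE 0.17, adjusted p = 0.0262 with limma, difference from dTAG -0.07, adjusted p = 0.938).

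The remaining bins with the largest changes were these, as mean ± s.d. of DMSO, dTAG+I-BET and dTAG. For ANGPT2, a ligand of the receptor TIE2, the bin lies in MCPH1 (chromosome 8, 6473409 to 6483408) and was at 453 ± 14.3, 723 ± 24.0 and 606 ± 134 (log2 0.67, SE 0.17, adjusted p = 0.0260 with limma). For PHLDA1, a protein linked to apoptosis, the bin (chromosome 12, 76001776 to 76011775) was at 826 ± 44.4, 1260.2 ± 91.7 and 918 ± 132 (log2 0.61, SE 0.15, adjusted p = 0.0262 with limma). For the protocadherin PCDH7, a bin in LINC02497 (chromosome 4, 31180370 to 31190369) was at 173 ± 13.5, 302 ± 34.4 and 250.2 ± 18.2 (log2 0.80, SE 0.17, adjusted p = 0.00953 with limma). These 3 bins rose, and 3 others fell. For ERRFI1, an inhibitor of EGF receptor signaling, the bin in CAMTA1 (chromosome 1, 7706309 to 7716308) was at 158 ± 13.0 and 90.5 ± 3.33, with dTAG replicates at 98.4, 87.1 and 84.4 (log2 -0.80, SE 0.21, adjusted p = 0.0340 with limma). For the keratin gene KRT80, the bin at KRT6C (chromosome 12, 52472015 to 52482014) was at 246 ± 7.52, 157 ± 8.71 and 199.9 ± 14.8 (log2 -0.65, SE 0.17, adjusted p = 0.0340 with limma). For TRIB1, the bin at ZNF572 (chromosome 8, 124970358 to 124980357) was at 209 ± 27.5, 115 ± 48.6 and 196 ± 38.0 (log2 -0.92, SE 0.25, adjusted p = 0.0340 with limma) and held as few as 13 interactions in a library. Differences from dTAG in these 6 bins were 0.28, 0.46, 0.27, 0.01, -0.35 and -0.82 in the order given, and none passed (limma adjusted p of 0.713 to 0.991).
The calls at IRS1, PHLDA1, KRT80 and the TRIB1 bin near the start site were each lost without any one of the 6 libraries, with limma adjusted p of 0.0691 to 0.128, 0.0707 to 0.161, 0.0735 to 0.145 and 0.0967 to 0.208. Those at ANGPT2 and ERRFI1 held only without DMSO replicate 3 (adjusted p of 0.0409 to 0.121 and 0.0477 to 0.171 over the 6 fits). That of TRIB1 at ZNF572 held only without DMSO replicate 3 or dTAG+I-BET replicate 3 (0.00654 to 0.220), and those at ITPRID2 and PCDH7 in 3 of 6 fits (0.0306 to 0.1 and 0.0129 to 0.0787).

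Among single cohesin-lost windows, those that fell belonged to HMGA2, MYC, MTAP, IRS1 and KRR1, and those that rose to EREG and ITPRID2. Of 113 windows, 85 were below 0 and 28 above in dTAG+I-BET relative to DMSO, with a median of -0.15. The test was passed by 15 (13.3%), 11 downward and 4 upward. HMGA2 had 5 of the 11 that fell, MYC 3, and MTAP, IRS1 and KRR1 1 each, and of the 4 that rose EREG had 3 and ITPRID2 1. The 5 largest decreases were 3 MYC windows, 1 of MTAP and 1 of HMGA2. Signal per kb in the MYC window 485 kb upstream (chromosome 8, 127242110 to 127259012) was 381, 343 and 355 in DMSO, 171, 185 and 211 in dTAG+I-BET and 231, 227 and 259 in dTAG. The groups form 3 separate steps there (log2 -0.93, SE 0.15, adjusted p = 0.00154 with limma), although the step from dTAG to dTAG+I-BET did not pass (log2 -0.34, SE 0.15, adjusted p = 0.636). In the MTAP window (chromosome 9, 21554611 to 21565011) the values were 597, 763 and 580.4, 394, 325 and 360.0 and 424, 509 and 458 in the same order. Every dTAG+I-BET library was again below every dTAG library, and these below every DMSO library (log2 -0.84, SE 0.15, adjusted p = 0.00248 against DMSO and log2 -0.37, SE 0.15, adjusted p = 0.613 against dTAG, with limma).
The other MYC windows, 400 and 441 kb upstream, fell by 0.73 and 0.68 on the log2 scale (limma adjusted p = 0.00779 and 0.0131), with differences from dTAG of -0.05 and 0.08 (adjusted p = 0.921 and 0.918). The HMGA2 window 175 kb upstream (chromosome 12, 65644065 to 65654465) was at 876, 776 and 770.4 in DMSO, 426, 534 and 589.9 in dTAG+I-BET and 622, 624 and 555 in dTAG. DMSO lay above all treated libraries, while both treated groups overlapped (log2 -0.65, SE 0.14, adjusted p = 0.00747 against DMSO, log2 -0.23, SE 0.14, adjusted p = 0.901 against dTAG, with limma). The windows of the printed HMGA2, IRS1 and KRR1 sequences, named for their sequence and outside the rule for named windows, changed by -0.60, -0.62 and -0.63 (limma adjusted p = 0.00623, 0.00747 and 0.0489).

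EREG encodes the EGF receptor ligand epiregulin, and its neighbor AREG the related ligand amphiregulin. All 6 EREG windows were above 0 (0.32 to 0.49), all of them downstream, as were both windows of DCBLD2 and both of KITLG. At each of the other 16 promoters more windows were below 0 than above. In the window 86 kb downstream (chromosome 4, 74441515 to 74461528), over the start site of AREG, signal was 871, 939 and 809.8 in DMSO, 1247, 1151 and 1286 in dTAG+I-BET and 909, 1006 and 712 in dTAG. The 3 dTAG+I-BET libraries were the highest, and DMSO and dTAG overlapped (log2 0.49, SE 0.14, adjusted p = 0.0314 against DMSO, log2 0.50, SE 0.14, adjusted p = 0.336 against dTAG, with limma). In the window 300 kb downstream (chromosome 4, 74660204 to 74670604) dTAG was also high, with 1014, 1153 and 1133 in DMSO, 1535, 1576 and 1491 in dTAG+I-BET and 1595, 1467 and 1239.6 in dTAG (log2 0.48, SE 0.13, adjusted p = 0.0266 against DMSO, log2 0.10, SE 0.13, adjusted p = 0.918 against dTAG, with limma). The window 269 kb downstream rose by 0.46 (limma adjusted p = 0.0492, difference from dTAG 0.24, adjusted p = 0.901). The ITPRID2 window 58 kb downstream (chromosome 2, 181944113 to 181954513), which lies at the promoter of PPP1R1C, went from 731, 699 and 571 in DMSO to 948, 1035 and 1053 in dTAG+I-BET, with 879.8, 809 and 696 in dTAG. The dTAG+I-BET libraries lay above every DMSO library, whereas dTAG replicate 3 lay among them (log2 0.61, SE 0.14, adjusted p = 0.00783 against DMSO, log2 0.35, SE 0.14, adjusted p = 0.613 against dTAG, with limma). The other 4 ITPRID2 windows, all but 1 below 0, reached down to -0.15.
The 3 EREG calls and the KRR1 call were lost without any one of the 6 libraries (0.0537 to 0.121, 0.0537 to 0.155 and 0.0505 to 0.118 at EREG, 0.0522 to 0.195 at KRR1, limma adjusted p). Those at MTAP, IRS1, ITPRID2, the printed HMGA2 window and the MYC windows 485 and 400 kb upstream held in all 6 fits. That of the HMGA2 window 175 kb upstream was lost without dTAG+I-BET replicate 1 (adjusted p = 0.0583), and that of the MYC window 441 kb upstream without DMSO replicate 3 or dTAG+I-BET replicate 1 (0.0655 and 0.0647). Called windows numbered 41 (10 up, 31 down) with dTAG replicate 3 left out of the spread, 9, 6 and 9 without DMSO replicate 1, dTAG+I-BET replicate 1 and dTAG+I-BET replicate 2, and 43 (7 up, 36 down) after rescaling.

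**Figure D2:**
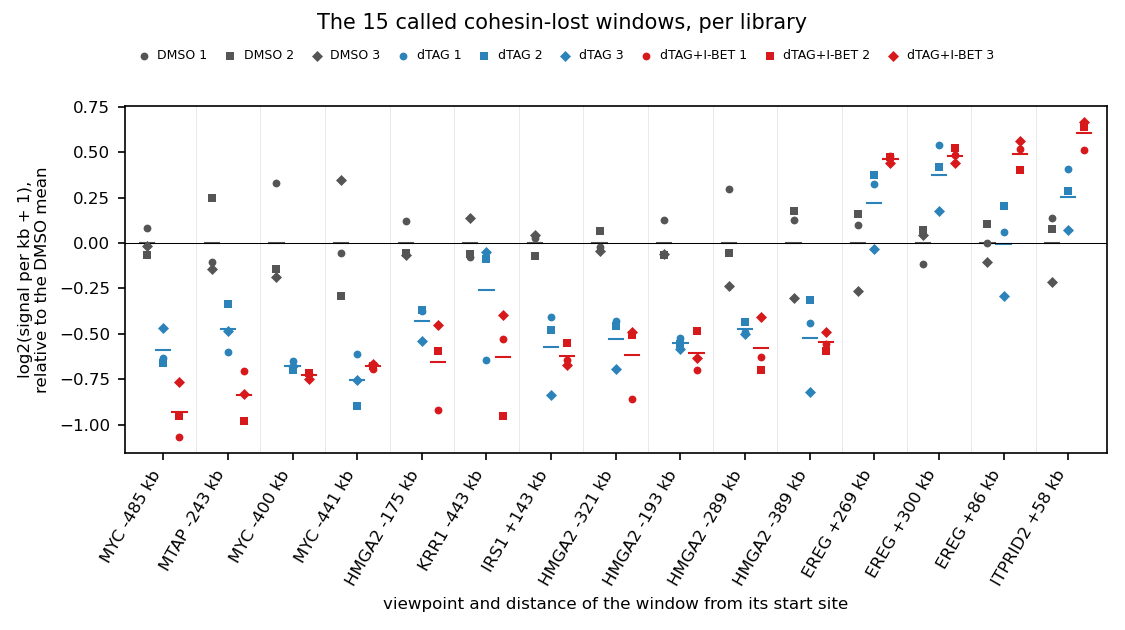
Log2 signal per kb relative to the DMSO mean (y axis) in the 15 cohesin-lost windows that passed the test, named by promoter and distance from its start site (x axis), with 1 point per library, lines at the group means, colors for treatments and shapes for replicates. The 11 windows on the left lie below 0 in all dTAG+I-BET libraries, and the 3 EREG windows and the ITPRID2 window above 0.

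Set against the rest of the same 10 to 500 kb, cohesin-lost windows lost signal at most promoters, a difference within each library that does not depend on how the library was scaled. Averaged over the 19 promoters, the windows exceeded other sequence by 0.95, 0.92 and 0.89 on the log2 scale in the DMSO replicates 1, 2 and 3, and by 0.73, 0.72 and 0.76 in the dTAG+I-BET replicates. The dTAG replicates were at 0.82, 0.76 and 0.87, so that dTAG+I-BET and DMSO did not overlap, while dTAG replicate 2 lay among the dTAG+I-BET libraries. The difference between dTAG+I-BET and DMSO was -0.18, with an exact permutation p = 0.1 (two-sided), the smallest that 3 libraries against 3 can give, and that between dTAG+I-BET and dTAG was -0.08 (exact permutation p = 0.2).
Tested for each promoter with limma, an addition made after the data had been seen, the difference fell at 11 of 19 promoters and rose at EREG, 12 in all (63.2%), with a median over all 19 of -0.18. It fell most at MTAP, where windows exceeded other sequence by 1.16, 1.24 and 0.64 in DMSO, 0.44, 0.32 and 0.51 in dTAG+I-BET and 0.41, 0.47 and 0.42 in dTAG (log2 -0.59, SE 0.13, adjusted p = 0.00459). DMSO replicate 3 was well below the other DMSO libraries there, yet above all treated ones. At HMGA2 the values were 1.08, 1.05 and 0.95, 0.51, 0.63 and 0.65 and 0.78, 0.71 and 0.81 in the same order, in 3 steps with no overlap (log2 -0.43, SE 0.06, adjusted p = 0.000304 against DMSO, log2 -0.17, SE 0.06, adjusted p = 0.106 against dTAG). KRR1, which encodes a ribosome assembly factor, also showed 3 separate steps, with 0.06, 0.14 and 0.10, -0.29, -0.25 and -0.40 and -0.16, -0.14 and -0.06 (log2 -0.41, SE 0.05, adjusted p = 0.000304 against DMSO, log2 -0.19, SE 0.05, adjusted p = 0.106 against dTAG). From the PHLDA1 promoter, on the other side of the same windows, the difference was -0.24 (limma adjusted p = 0.00281). The other falls were at SPRY4, an inhibitor of receptor tyrosine kinase signaling (-0.42), MYC (-0.38), TRIB1 (-0.27), IRS1 (-0.25), ERRFI1 (-0.23), the heparan sulfate sulfotransferase gene HS3ST1 (-0.18) and PCDH7 (-0.14), with adjusted p of 0.00281 to 0.0314. At EREG the difference rose from 0.91, 0.93 and 0.86 in DMSO to 1.25, 1.21 and 1.20 in dTAG+I-BET, with 1.09, 1.08 and 1.21 in dTAG (log2 0.32, SE 0.05, adjusted p = 0.000832 against DMSO, log2 0.09, SE 0.05, adjusted p = 0.226 against dTAG, with limma).
By gene group, 4 of the 7 promoters of growth factor and receptor signaling fell and EREG rose (median -0.23), both nuclear regulators, MYC and HMGA2, fell (median -0.40), 1 of 4 genes of the epithelial cytoskeleton and cell surface fell (PCDH7, median -0.09) and 4 of the 6 other genes fell (median -0.21). Without any one of the libraries 9 to 12 promoters were called. The calls at HS3ST1, PCDH7 and SPRY4 were lost in 4 or 5 of the 6 leave-one-out fits (limma adjusted p of 0.0183 to 0.0708, 0.0418 to 0.0841 and 0.0151 to 0.0941).

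**Figure D3:**
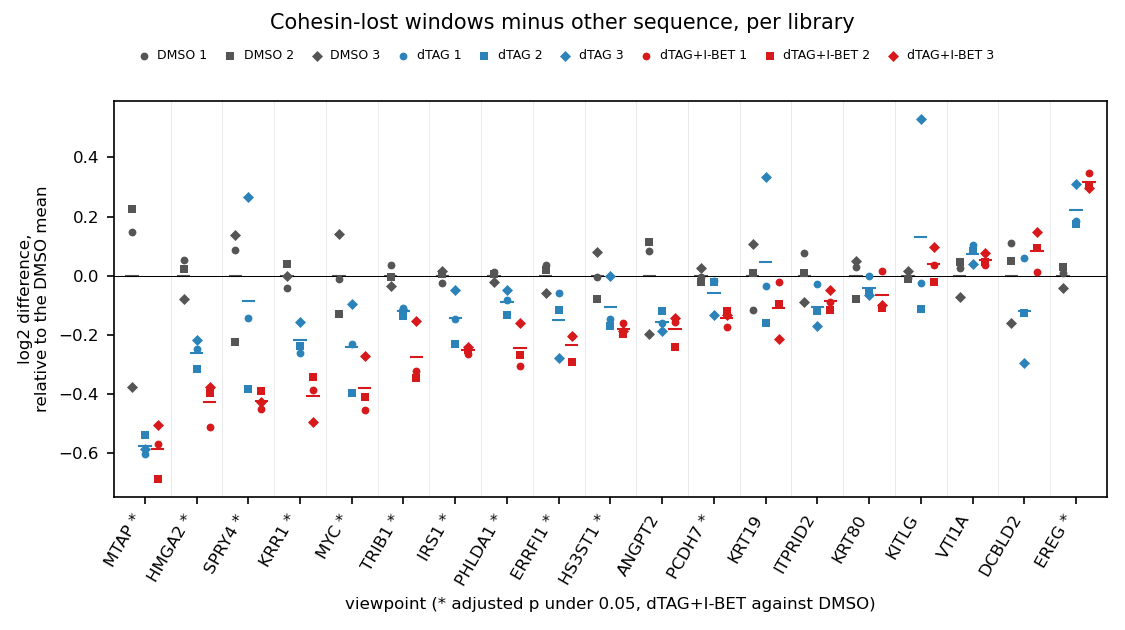
Difference of log2 signal per kb between cohesin-lost windows and other sequence from 10 to 500 kb, relative to the DMSO mean (y axis), for 19 promoters (x axis), with 1 point per library, lines at the group means, and an asterisk where limma gave an adjusted p under 0.05. MTAP is at the low end (-0.59) and EREG at the high end (0.32).

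Not set against other sequence, the windows summed over a promoter passed the test only at EREG, 1 of 19 (5.26%), from 819, 846 and 767 per kb in DMSO to 1104, 1078 and 1083 in dTAG+I-BET, with 1006, 1011 and 783 in dTAG. The dTAG+I-BET libraries were the highest (log2 0.43, SE 0.11, adjusted p = 0.0387 against DMSO, log2 0.23, SE 0.11, adjusted p = 0.580 against dTAG, with limma). MYC, KRR1 and SPRY4 were at -0.34, -0.37 and -0.35 and just missed the threshold (limma adjusted p = 0.0553, 0.0553 and 0.0559). The median of the 19 was -0.13, and in other sequence it was 0.08. This count moved with the setting, since 10 promoters (3 up, 7 down) were called with dTAG replicate 3 left out of the spread and 12 (1 up, 11 down) after rescaling. The call at EREG was lost without any library but DMSO replicate 2 (limma adjusted p of 0.0430 to 0.193).

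The downstream side, in the direction of transcription, gained signal relative to the upstream side at 9 of the 20 promoters and lost it at VTI1A, a SNARE protein gene (10 called, 50%). The difference of both sides was tested, and not each side. It changed most at HMGA2, where downstream minus upstream on the log2 scale was -1.92, -1.83 and -1.29 in DMSO, -0.66, -0.66 and -0.66 in dTAG+I-BET and -0.76, -0.79 and -0.54 in dTAG. Every treated library differed less between the sides than every DMSO library, and DMSO replicate 3 stood between the others and the treated ones (log2 1.02, SE 0.15, adjusted p = 0.000673 against DMSO, log2 0.04, SE 0.15, adjusted p = 0.898 against dTAG, with limma). HMGA2 signal per kb was 247 ± 44.1 in DMSO and 427 ± 4.80 in dTAG+I-BET downstream, and 788 ± 54.9 and 676 ± 8.91 upstream. At MYC, downstream minus upstream was 0.39, 0.52 and 0.26 in DMSO, 0.90, 0.93 and 0.92 in dTAG+I-BET and 1.03, 1.08 and 0.82 in dTAG. Both treated groups overlapped, and both lay above DMSO (log2 0.53, SE 0.08, adjusted p = 0.000811 against DMSO, log2 -0.06, SE 0.08, adjusted p = 0.664 against dTAG, with limma). KRR1 had the lowest adjusted p, with -0.74, -0.70 and -0.71 in DMSO, -0.30, -0.27 and -0.28 in dTAG+I-BET and -0.33, -0.41 and -0.42 in dTAG, again in 3 separate steps (log2 0.43, SE 0.04, adjusted p = 6.70e-05 against DMSO, log2 0.11, SE 0.04, adjusted p = 0.345 against dTAG, with limma).
At DCBLD2, ITPRID2, MTAP, HS3ST1, EREG and TRIB1 downstream minus upstream rose by 0.37, 0.37, 0.36, 0.31, 0.25 and 0.24 (limma adjusted p of 0.0015 to 0.0332), and their differences from dTAG were -0.10, -0.01, 0.01, 0.09, 0.05 and 0.08 (adjusted p of 0.593 to 0.898). Upstream signal was no lower in dTAG+I-BET than in DMSO at DCBLD2 (448 ± 11.4 against 437 ± 40.3 per kb), MTAP (605 ± 10.6 against 583 ± 36.8) and EREG (370.4 ± 4.63 against 368 ± 6.10). VTI1A moved from -0.78, -0.75 and -0.58 in DMSO to -0.87, -0.88 and -0.84 in dTAG+I-BET, with -0.75, -0.68 and -0.70 in dTAG, so that dTAG+I-BET stood below both other groups (log2 -0.16, SE 0.06, adjusted p = 0.0403 against DMSO, log2 -0.15, SE 0.06, adjusted p = 0.345 against dTAG, with limma). Cohesin-lost sites lie mainly upstream of MTAP (8 of 8), KRR1 (12 of 12), HMGA2 (10 of 11) and MYC (10 of 12), but downstream of EREG (9 of 9). Sides did not pass at ERRFI1 and KRT80, with all 12 and all 6 sites upstream, nor at PCDH7, PHLDA1 and IRS1, with 15 of 15, 12 of 12 and 9 of 10 downstream. An alternative added after the data had been seen left all cohesin-lost windows out of both sides. Then the difference rose at 9 promoters and fell at none (45% called), and VTI1A was at -0.13 (limma adjusted p = 0.0678). By gene group, downstream minus upstream rose at 2 of 7 promoters of growth factor and receptor signaling (median 0.15) and at both nuclear regulators (median 0.77). It rose at 1 of 4 genes of the epithelial cytoskeleton and cell surface (median 0.11) and at 4 of 7 other genes (median 0.31). VTI1A, where it fell, is also in the group of other genes. The median over all 20 was 0.20. Among these calls, those at DCBLD2 and VTI1A were lost in 5 and 4 of the leave-one-out fits (limma adjusted p of 0.00650 to 0.109 and 0.0292 to 0.126), and the other 8 in none.

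**Figure D4:**
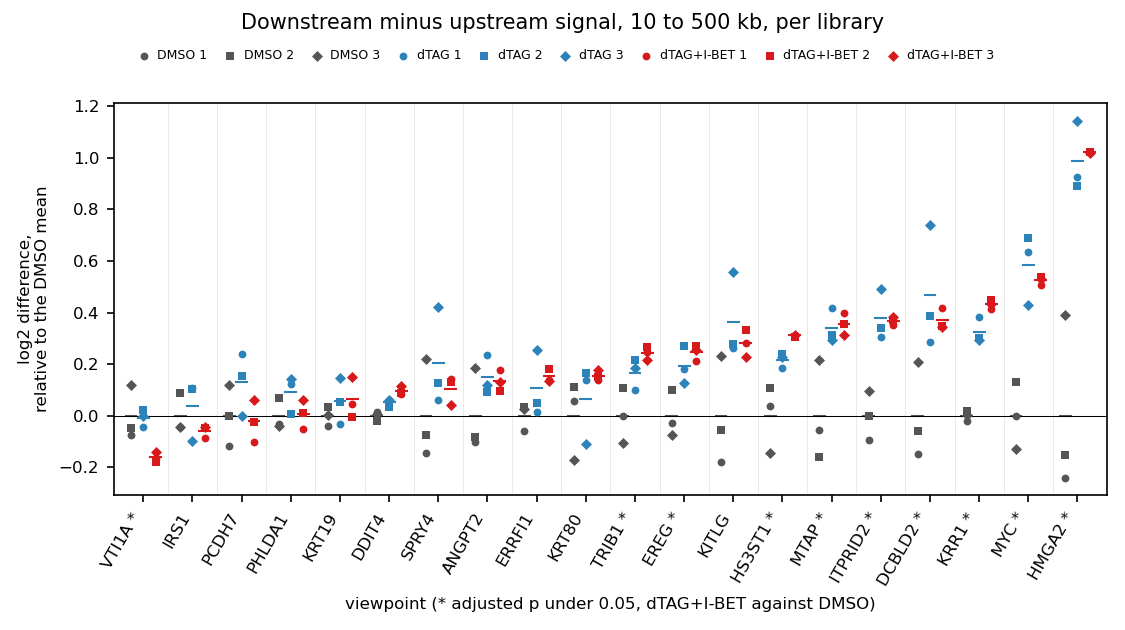
Downstream minus upstream log2 signal from 10 to 500 kb, relative to the DMSO mean (y axis), for the 20 promoters (x axis), with 1 point per library, lines at the group means, and an asterisk where limma gave an adjusted p under 0.05. HMGA2 is at 1.02 at the right end, and VTI1A at -0.16 at the left.

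Among the 10 promoters whose genes are over 30 kb long, signal with the promoter's own gene, from 10 kb past the start site to the gene's end, rose at 5 (50%) and fell at none. At HMGA2 it rose most, from 471, 467 and 581 per kb in DMSO to 996, 1009 and 1043 in dTAG+I-BET, with 937, 902 and 783 in dTAG. The 3 groups were ordered without overlap (log2 1.01, SE 0.16, adjusted p = 4.33e-07 against DMSO, log2 0.22, SE 0.16, adjusted p = 0.440 against dTAG, with limma). DCBLD2 rose from 948, 877 and 983 to 1318, 1277 and 1329.6, with 1281, 1257 and 1052 in dTAG (log2 0.48, SE 0.16, adjusted p = 0.0196 and log2 0.13, SE 0.16, adjusted p = 0.513, against DMSO and dTAG with limma). KITLG rose from 868, 914 and 881 to 1185, 1242 and 1217, with 1103, 1120.3 and 807 in dTAG (log2 0.45, SE 0.16, adjusted p = 0.0219 and log2 0.28, SE 0.16, adjusted p = 0.303, likewise). For both genes dTAG replicate 3 was the lowest treated library, at KITLG below all DMSO libraries. ITPRID2 went from 1477, 1484 and 1286 to 1830.2, 1911 and 2003, with 1766, 1639 and 1188 in dTAG (log2 0.44, SE 0.16, adjusted p = 0.0219 and log2 0.34, SE 0.16, adjusted p = 0.303, with limma). MTAP went from 549, 467 and 444 to 637, 664 and 628, with 682, 658 and 419.9 in dTAG (log2 0.41, SE 0.16, adjusted p = 0.0288 and log2 0.16, SE 0.16, adjusted p = 0.496, with limma). In all 5 genes the dTAG+I-BET libraries lay above every DMSO library. They did so too at ANGPT2 and HS3ST1, which were not called, and overlapped DMSO at IRS1, PCDH7 and VTI1A. ANGPT2 and HS3ST1 were at 0.32 and 0.14, IRS1 at 0.0042, PCDH7 at -0.05 and VTI1A at -0.06, none of which passed, and the median of the 10 was 0.36. The test gives all 10 genes the same SE because limma estimated 1 common spread for them. HMGA2 kept its call in every leave-one-out fit, KITLG in none (limma adjusted p of 0.0524 to 0.0860), DCBLD2 in 2 of 6 (0.0258 to 0.0860), and ITPRID2 and MTAP in 1 (0.0477 to 0.137 and 0.0462 to 0.157). Called genes numbered 1 without DMSO replicate 2 or any dTAG+I-BET library and 2 without DMSO replicate 3.

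**Figure D5:**
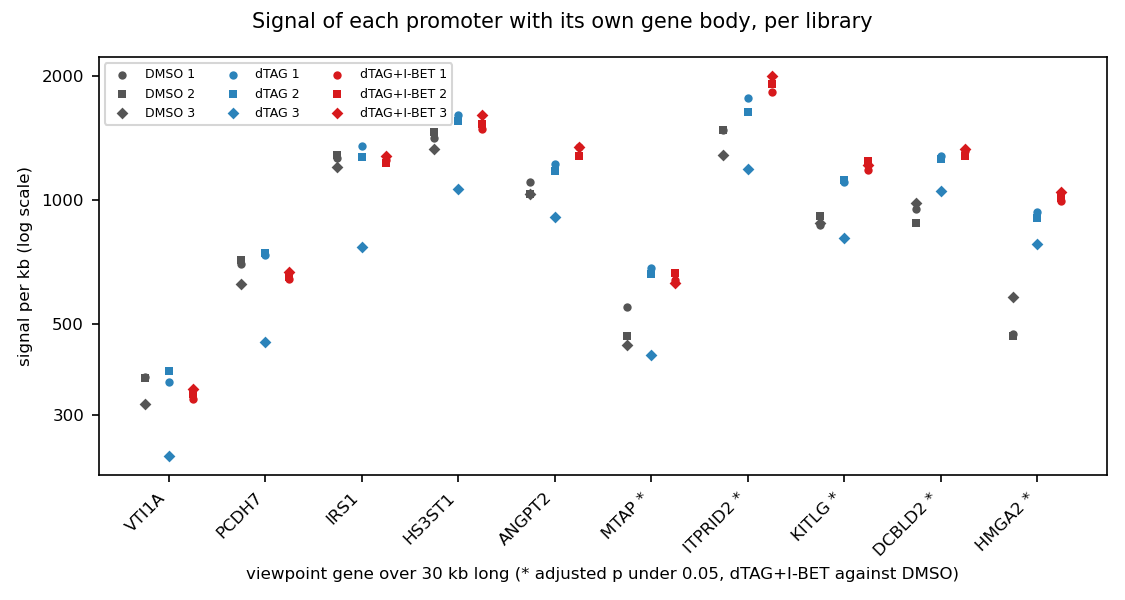
Signal per kb of each promoter with its own gene body (y axis, log scale) for the 10 viewpoint genes over 30 kb long (x axis), with 1 point per library, colors for treatments and shapes for replicates, and an asterisk where limma gave an adjusted p under 0.05. At HMGA2 the dTAG+I-BET libraries lie between 996 and 1043 and the DMSO libraries between 467 and 581.

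Contacts with promoters of neighboring genes changed at 1 of 174 (0.575%). MTAP gained signal at IFNE, which encodes an epithelial interferon (chromosome 9, 21477313 to 21487313), from 271, 273 and 305 per kb in DMSO to 555, 558 and 541 in dTAG+I-BET, with 559, 486 and 476 in dTAG. Both treated groups lay above DMSO (log2 0.96, SE 0.17, adjusted p = 0.000649 against DMSO, log2 0.12, SE 0.17, adjusted p = 0.848 against dTAG, with limma), in all 6 leave-one-out fits. A pair of promoters that missed the threshold is named after their values were seen. EREG signal at AREG was 964, 968 and 768 in DMSO, 1279, 1287 and 1308 in dTAG+I-BET and 943, 1108 and 726 in dTAG, and MTAP signal at CDKN2A 382, 447 and 545, 713, 752 and 693 and 695, 606 and 399. At both, the dTAG+I-BET libraries were the highest except that dTAG replicate 1 was above dTAG+I-BET replicate 3 at CDKN2A (0.53 and 0.66 against DMSO, limma adjusted p = 0.0564 at both, and 0.50 and 0.38 against dTAG, adjusted p = 0.138 and 0.558). Without DMSO replicate 1, DMSO replicate 3, dTAG+I-BET replicate 1 or dTAG+I-BET replicate 3, 3, 7, 2 and 2 neighboring promoters were called.

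By distance alone, no band of any promoter passed (0 of 80, 0%, with limma, 10 at an unadjusted p under 0.05, and 0 with edgeR), nor did the whole region of any promoter (0 of 20, 0%, with limma and with edgeR, 0 at an unadjusted p under 0.05). From 10 to 50 kb, all 20 promoters were above 0 in dTAG+I-BET relative to DMSO, with a median of 0.14. Averaged over the promoters, the dTAG+I-BET replicates were at 0.16, 0.18 and 0.19 there and the DMSO replicates at 0.10, 0.01 and -0.11 (exact permutation p = 0.1, two-sided). The DMSO libraries thus spanned slightly more than separates the group means. In the same band, dTAG replicates 1, 2 and 3 were at 0.13, 0.10 and -0.48. From 250 to 500 kb, 13 of 20 promoters were below 0, and the library means were -0.01, 0.0024 and -0.0040 in dTAG+I-BET. The bands with the lowest p were MTAP from 250 to 500 kb (300.2 ± 47.8 to 414 ± 5.99 per kb, log2 0.47), HMGA2 from 250 to 500 kb (309.5 ± 4.89 to 256 ± 4.24, log2 -0.27) and HMGA2 from 10 to 50 kb (1318 ± 58.0 to 1813 ± 37.9, log2 0.46), all at a limma adjusted p = 0.108. With dTAG replicate 3 left out of the spread, 29 bands (22 up, 7 down) and 6 whole regions (all up) were called.

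dTAG and dTAG+I-BET share their DMSO controls, so that both comparisons with DMSO hold the same 3 libraries. Of the 1960 bins, 29 (1.48%) passed for dTAG against DMSO with limma, and 0 (0%) for dTAG+I-BET against dTAG, with limma as with edgeR. For the latter, limma's lowest adjusted p was 0.301, and its p before adjustment was under 0.05 in 122 bins. Both counts include dTAG replicate 3, which acts on the mean of dTAG and on the spread. From 10 to 50 kb this library was at -0.48, against 0.13 and 0.10 in dTAG replicates 1 and 2. These 2 comparisons were not counted without it. In the 96 bins called for dTAG+I-BET against DMSO, the signed median was 0.68 in dTAG+I-BET and 0.40 in dTAG. This median mixes 68 rises with 28 falls and is not a size of change. Without regard to sign it was 0.77 in dTAG+I-BET, and it was not taken for dTAG. Over the 5 called gene bodies the signed median was 0.45 and 0.24. For the 12 promoters called for cohesin-lost windows against other sequence it was -0.26 and -0.13, and for the 10 called for downstream minus upstream 0.36 and 0.33. The bins, genes and promoters were called on dTAG+I-BET, which by itself makes these medians larger for it. The medians of dTAG also include dTAG replicate 3. No window, promoter, gene body or side passed for dTAG+I-BET against dTAG (lowest limma adjusted p of 0.336 for single windows, 0.106 for windows against other sequence, 0.345 for sides, 0.303 for gene bodies and 0.0607 for neighboring promoters). At an unadjusted p under 0.05 there were 7, 4, 2, 1 and 15, in that order.

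DDIT4, KRT19 and KRT80 had few calls in any of these measures. DDIT4, an inhibitor of mTORC1 signaling without cohesin-lost sites, had no called bin, a median over its bins of -0.01, and a difference of downstream minus upstream of -0.53, -0.57 and -0.54 in DMSO and -0.46, -0.46 and -0.43 in dTAG+I-BET, which did not pass although the groups did not overlap (log2 0.10, SE 0.04, adjusted p = 0.0613 with limma). KRT19, a keratin of simple epithelia, was at -0.11 (SE 0.12) for windows against other sequence and 0.06 (SE 0.06) for sides, and KRT80 at -0.06 (SE 0.05) and 0.16 (SE 0.09).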

How the data were processed

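Capture-C libraries of 3 DMSO, 3 dTAG and 3 dTAG+I-BET samples were analysed for 20 promoter viewpoints. The authors aligned reads to hg38 and counted ligation junctions per DpnII fragment with CapCruncher, with Bowtie2 and Samtools named for the study and bcl2fastq 2.17 in the submitters' processing notes, and deposited a normalised interaction signal per fragment, scaled to nearly equal totals on the viewpoint's chromosome. PCR duplicates, filters and capture efficiency act on this signal before it can be seen here. All values were whole multiples of 1 step per viewpoint and library (100% within 0.01), so that whole reads were recovered for depth and for edgeR. The spellings ERRIF1 and H3S3T1 in the files were read as ERRFI1 and HS3ST1, at whose start sites the signal is strongest.

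Signal was summed per bin, window, band, side or gene (GENCODE 44), divided by length, and tested as log2(signal per kb + 1) with limma 3.58.1 (lmFit, eBayes, two-sided, Benjamini-Hochberg within each measure, adjusted p under 0.05) in R 4.3.3, with all 9 libraries sharing the spread. Bins with a mean under 2 per kb would have been left out, and none was. Per-library means were compared by exact permutation. edgeR 4.0.16 (quasi-likelihood) was the count test. Python 3.11.15, numpy 2.4.6, pandas 2.3.3 and matplotlib 3.10.9 were used, and the tests were tried on simulated data.

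Named were the called bin with the largest increase and the largest decrease at each promoter, and otherwise all called items up to 10 or the 5 largest in each direction, or the 3 with the lowest p where none was called. Promoters, lists and tests were chosen with earlier results of these data known. The alternatives were other pseudocounts, bin and window sizes, scalings, left-out libraries, a replicate block and, chosen after seeing the data, dTAG replicate 3 left out of the spread, sides without cohesin-lost windows, and the test of windows against other sequence for each promoter. The study calls its replicates biologically independent, whereas the column names carry an unexplained "TR", so that p-values measure the spread between these libraries. Same-numbered DMSO and dTAG+I-BET libraries did not deviate together (correlations of 0.0076, -0.033 and 0.018).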

Additional observations from a re-analysis of the deposited data

How the results depend on the processing

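Over 60 named bins, windows, genes and promoters and 880 values under the alternatives, 726 kept direction and call, 154 kept direction but lost the call and 0 reversed. These items were named because they were called, which by itself makes a reversal unlikely. A replicate block, a fit of only DMSO and dTAG+I-BET, and leaving out dTAG replicate 3 change the spread alone and cannot reverse a direction. Numbers of calls moved more, as the next sentences give by setting. With dTAG replicate 3 left out of the spread, chosen after seeing the data, 199 bins, 41 single windows, 10 promoters by summed windows, 29 bands and 8 neighboring promoters were called, and with only DMSO and dTAG+I-BET in the fit 167, 32, 10, 26 and 8, where the numbers with all libraries were 96, 15, 1, 0 and 1. Rescaling to equal totals from 10 to 1000 kb gave 136 bins, 43 single windows, 12 promoters by summed windows, 13 bands and 5 neighboring promoters. The decay adjustment gave 164 bins, and bins of 25 kb 47. For summed windows, edgeR called 4 promoters, windows of 2.5 kb on each side gave 2, and sites more than 25 kb away 5, and edgeR called 6 neighboring promoters. A replicate block gave 115 bins, 5 promoters by summed windows and 9 neighboring promoters. It was fitted although same-numbered DMSO and dTAG+I-BET libraries did not deviate together, and dTAG libraries were not part of that check. Leaving out 1 library at a time gave 30 to 88 bins, 6 to 11 single windows, 0 to 2 promoters by summed windows, 0 to 1 band, 1 to 4 gene bodies, 1 to 7 neighboring promoters, 8 to 11 promoters by sides and 9 to 12 by windows against other sequence. The mean difference between windows and other sequence stayed between -0.20 and -0.17 under every alternative run. The cause of these shifts was not tested. The smallest difference called in 10-kb bins was log2 0.54, with a median SE of 0.19 and a median of 80.25 interactions per bin and library. This limit moves with the spread, since more bins were called without dTAG replicate 3 at the same depth.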
